A study of Homo sapiens with 8 samples.

Results

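Levels of 39 transcripts of the unfolded protein response and of the linked ATF4 response were examined in PANC1, a human pancreatic cancer cell line of ductal origin. The genes were chosen by name as a pathway, and every non-control probe set annotated to exactly 1 of their symbols was used, which gave 124 of the 49293 probe sets tested and 39 of 18132 genes. Another 1 probe set, which names PHGDH together with a second gene, was left out by this rule. A single probe set reads 9 of the genes, the other 30 have several (at most 9), and each gene stands below for the probe set with its highest mean over the 8 arrays unless another is named. Even the weakest of these representatives, that of ERN1, averaged 5.16 log2, above the lower quartile of every array (4.30 to 4.39 log2). That does not by itself show detection, since the T cell marker CD3E read 5.04 to 5.35 log2.

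RNA was hybridized to Affymetrix PrimeView arrays, which read transcripts near their 3′ ends, and the values are log2 expression levels. The 4 groups held 2 arrays each: sgBAP1 + IR (BAP1 targeted with CRISPR/Cas9, then 10 Gy of ionizing radiation), sgBAP1 (targeted, not irradiated), IR (labelled wild type, 10 Gy) and control (labelled wild type, untreated), with irradiated cells collected after 3 days. BAP1 is a nuclear deubiquitinase that acts on histone H2A. The methods describe transfection of a plasmid with Cas9 and a guide, either to an early exon or a non-targeting control guide, with puromycin selection afterwards. Whether control arrays came from cells with the non-targeting guide or from untransfected cells is not in the labels, and in the second case loss of BAP1 and effects of these steps cannot be told apart. A copy of BAP1 is described as missing from PANC1 to begin with, and the label wild type stands for cells that were not targeted. Separate cultures are recorded for no group, so p-values measure only the spread between these samples. In such bulk RNA, fewer cells with a transcript and less of it per cell cannot be told apart.

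Pearson correlations over all probe sets were 0.998 to 0.9985 within groups and 0.9881 to 0.9952 between groups, and array medians lay between 6.116 and 6.152 log2. The 4 ductal keratins read were KRT18 (13.47 to 13.85 log2 on the 8 arrays), KRT8 (12.73 to 13.33), KRT19 (10.64 to 11.93) and KRT7 (5.83 to 7.5). KRT19 rose by 1.23 ± 0.05 and KRT7 by 1.56 ± 0.07 in sgBAP1 + IR against control, and by 1.12 ± 0.05 and 0.80 ± 0.07 in IR against control, where KRT8 rose as well (0.59 ± 0.05). With the guide, KRT7 rose by 0.76 ± 0.07 in sgBAP1 + IR against IR, where KRT8 and KRT18 lay at -0.08 and -0.07. In sgBAP1 against control KRT7 (0.56 ± 0.07) and KRT19 (0.36 ± 0.05) lay higher without a call. The mean level of these keratins on an array was 11.58 to 11.60 log2 in sgBAP1 + IR, 11.00 on both arrays in sgBAP1, 11.40 to 11.42 in IR and 10.67 to 10.72 in control cells. This mean moves with the IR effects and with the guide effects below, and its part in them was not tested. Of 13 markers of other cell types, 3 lay below the lower quartile on all arrays: the leukocyte marker PTPRC (3.31 to 3.6), the fibroblast marker LUM (2.71 to 3.12) and the acinar lipase PNLIP (2.79 to 3.19). The other 10 did not, among them the acinar PRSS1 (6.78 to 7.14), the T cell marker CD3E (5.04 to 5.35) and CD68, a lysosomal protein of macrophages and other cells (7.5 to 9.19). CD68 was the only one of the 13 called in any comparison: it rose by 0.93 ± 0.08 in sgBAP1 against control and by 0.87 ± 0.08 in sgBAP1 + IR against IR, and fell by 0.63 ± 0.08 in IR against control and by 0.69 ± 0.08 in sgBAP1 + IR against sgBAP1. Its part in the results below was not tested. The difference between the 3′ and 5′ control probe sets of ACTB, a reading of RNA integrity and labeling, was 0.741 and 0.7243 log2 in sgBAP1 + IR, 0.8159 and 0.8147 in sgBAP1, 0.5072 and 0.5321 in IR and 0.5766 and 0.5571 in control. It was higher on all 4 arrays with the BAP1 guide, so it moves with every guide effect below, and its part in them was not tested. The same difference for GAPDH was between -0.0501 and 0.0559 on all arrays.

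When misfolded proteins build up in the endoplasmic reticulum (ER), 3 sensors in its membrane respond: IRE1 (ERN1), which splices the XBP1 transcript, PERK (EIF2AK3), which phosphorylates the initiation factor eIF2, and ATF6, which is cut to release a transcription factor. Spliced XBP1 and ATF6 switch on chaperones and degradation factors, whereas phosphorylated eIF2 lowers general translation but favors translation of ATF4. ATF4 then activates genes of amino acid supply and, through DDIT3 (CHOP), of feedback and cell death, and other eIF2 kinases reach ATF4 without ER stress. Translation of ATF4, splicing of XBP1 and cleavage of ATF6 are not read by these probe sets, which measure total transcript.

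Sequences through which these factors act are found near the starts of many of the genes. Those of some members whose values are described below are shown to set the chaperone branch beside the ATF4 branch. The motif matches of PDIA6 and CEBPG lie in another RefSeq promoter of each gene and are not printed. RefSeq promoters on GRCh38.p14 were at hand for 35 members; NUPR1, PDIA3, PSPH and SHMT2 are named only. The 250 bases before each start were searched on both strands. The ER stress response element (ERSE), the letters CCAAT and CCACG with 9 free bases between them, is a site of ATF6 together with the CCAAT-binding factor NF-Y, and the shorter ERSE-II, ATTGG and CCACG with 1 free base between them, is a related site. ERSE was present in 7 member promoters (20%), namely XBP1, HSPA5, HSP90B1, CALR, CANX, PDIA6 and CRELD2, and in those of 25 of 27305 genes (0.0916%). With its last base free (CCACN, which includes every ERSE) it was present in 9 member promoters (25.7%), DDIT3 and HERPUD1 in addition, and in 0.344% of all genes. ERSE-II was present in 3, namely HYOU1, SDF2L1 and HERPUD1 (8.57%), and in 0.0659% of all genes. The members were chosen by name as genes of this pathway, so these shares are a description and not a test. In the lines that follow, the fixed letters of a match are in capitals, read 5′ to 3′ on the strand of the gene.
HSPA5: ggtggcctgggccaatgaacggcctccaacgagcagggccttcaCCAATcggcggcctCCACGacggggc
HSP90B1: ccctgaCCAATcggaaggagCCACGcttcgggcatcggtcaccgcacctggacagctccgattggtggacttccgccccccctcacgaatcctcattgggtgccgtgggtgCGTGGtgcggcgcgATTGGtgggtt
XBP1: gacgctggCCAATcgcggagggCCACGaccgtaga
CRELD2: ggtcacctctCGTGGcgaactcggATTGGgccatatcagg
SDF2L1: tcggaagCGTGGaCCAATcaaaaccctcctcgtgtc
HYOU1: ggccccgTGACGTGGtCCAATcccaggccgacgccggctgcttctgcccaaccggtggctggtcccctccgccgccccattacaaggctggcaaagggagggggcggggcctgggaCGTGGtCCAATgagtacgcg
These windows are chr9:125241384-125241453 (minus strand) for HSPA5, chr12:103930210-103930345 (plus) for HSP90B1, chr22:28800595-28800629 (minus) for XBP1, chr22:49918544-49918583 (plus) for CRELD2, chr22:21642107-21642142 (plus) for SDF2L1 and chr11:119057265-119057400 (minus) for HYOU1. HSP90B1 and HYOU1 each hold 2 matches. The XBP1 core TGACGTG was present in 1 member promoter, that of HYOU1, where it overlaps the first ERSE-II, and in 2.05% of all genes.

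The C/EBP-ATF response element (CARE), TGATG and AA with 1 free base between them, is the site of ATF4 paired with a C/EBP protein. It was present in 4 member promoters (11.4%), those of HERPUD1, CHAC1, ASNS and CEBPG, and in 3.89% of all genes, and only HERPUD1 held it together with ERSE-II. DDIT3 is shown for its ERSE with the last base free, and these CARE letters are not in its window.
HERPUD1: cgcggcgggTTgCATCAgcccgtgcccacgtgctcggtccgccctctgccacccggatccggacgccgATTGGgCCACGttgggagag
CHAC1: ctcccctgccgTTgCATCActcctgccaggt
ASNS: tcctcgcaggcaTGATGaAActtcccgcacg
DDIT3: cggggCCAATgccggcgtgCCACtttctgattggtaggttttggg
The windows are chr16:56931957-56932044 (plus) for HERPUD1, chr15:40953251-40953281 (plus) for CHAC1, chr7:97872458-97872488 (minus) for ASNS and chr12:57520575-57520619 (minus) for DDIT3. A match is a string of letters and not a measured site.

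**Figure D1:**
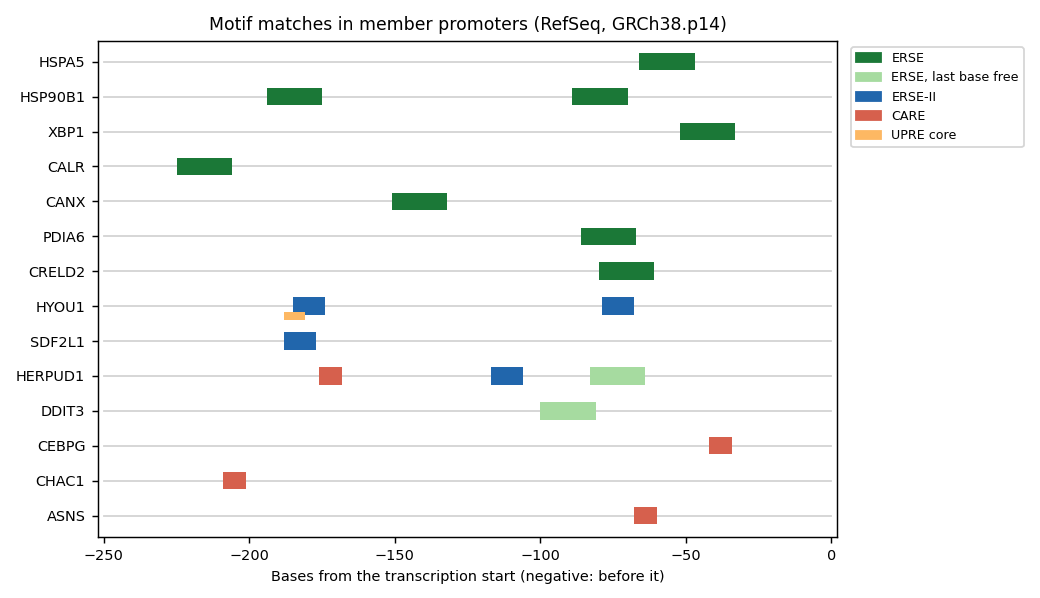
Motif matches in the 250 bases before the transcription start of 14 members, plotted by distance from the start in bases, 1 row per gene and 1 color per motif (RefSeq, GRCh38.p14). HSPA5, HSP90B1, CALR, CANX, HYOU1 and SDF2L1 among the chaperones carry ERSE or ERSE-II, as do XBP1, PDIA6 and CRELD2, CHAC1, ASNS and CEBPG carry CARE only, and HERPUD1 carries both kinds.

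Of the 39 genes, 7 passed the adjusted p and a 1.5-fold change in at least 1 comparison, and 31 passed the adjusted p. The shares of all genes that did so were not computed, so both counts are only a description. None of the 8 ER chaperones was called. In the first 5 comparisons 0.993% to 3.62% of all genes rose and 1.13% to 4.39% fell, so 0 of 8 does not set them apart. A gene was called when its limma Benjamini-Hochberg adjusted p over all 49293 probe sets was under 0.05 and its fold change over 1.5. In sgBAP1 against control cells, 2 of 39 genes rose and 0 fell, where 2.32% of all genes rose and 2.61% fell. In IR against control, 2 rose and 0 fell (2.2% and 1.38% of all genes). In sgBAP1 + IR against control, 3 rose and 1 fell (3.62% and 4.39%). Irradiation of sgBAP1 cells gave 3 rises and 0 falls (1.9% and 1.29%), and the guide among irradiated cells gave 2 and 0 (0.993% and 1.13%). The difference between both IR effects, the interaction, was called for 1 gene, in the lower direction (0.309% of all genes, with 0.154% higher). With 39 members 1 gene is 2.56% of them, 2 are 5.13% and 3 are 7.69%, so the shares that rose were above those of all genes in the first 5 comparisons, each resting on 2 or 3 genes, and the shares that fell were below. At an unadjusted limma p under 0.05, 25 members passed in sgBAP1 against control (64.1%, and 38.6% of all genes). The count was 23 (59.0%) in each of the next 4 comparisons, where 32.7% of all genes passed in IR against control, 46.7% in sgBAP1 + IR against control, 34.9% in sgBAP1 + IR against sgBAP1 and 33.7% in sgBAP1 + IR against IR. In the interaction 7 passed (17.9%, and 15.4% of all genes). Of the 124 member probe sets, 4 were called higher and 2 lower in sgBAP1 against control (2.23% and 2.45% of all probe sets), 4 and 3 in IR against control (1.88% and 1.16%), 9 and 10 in sgBAP1 + IR against control (3.01% and 4.18%), 5 and 1 in sgBAP1 + IR against sgBAP1 (1.63% and 1.46%), 3 and 0 in sgBAP1 + IR against IR (0.761% and 1.05%), and 0 and 1 in the interaction (0.11% and 0.333%). The called member genes were DDIT3, CEBPB, HERPUD1, STC2, NUPR1, ATF5 and PSAT1, and the other 32 were called in no comparison.

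The median member moved little: by -0.0005 log2 in sgBAP1 against control (all genes 0.001), 0.02 in IR against control (all genes -0.002), -0.02 in sgBAP1 + IR against control (all genes 0.03), -0.05 in sgBAP1 + IR against sgBAP1 (all genes 0.03) and -0.01 in sgBAP1 + IR against IR (all genes 0.03). Between 18 and 20 of the 39 lay above 0 in each of these comparisons. The median absolute change was 0.193 log2 for members and 0.131 for all genes in sgBAP1 against control, 0.187 and 0.112 in IR against control and 0.235 and 0.165 in sgBAP1 + IR against control. With the adjusted p alone and no limit on fold, 10 members were higher and 11 lower in sgBAP1 against control (11.9% and 16% of all genes), 8 and 10 in IR against control (9.22% and 10.6%), and 12 and 10 in sgBAP1 + IR against control (17.4% and 19.2%). The counts were 5 and 10 in sgBAP1 + IR against sgBAP1 (10% and 10.5%), 5 and 7 in sgBAP1 + IR against IR (7.27% and 10.1%), and 0 and 1 in the interaction (0.237% and 0.386%). In both directions together, 53.8% of members and 27.9% of all genes passed in sgBAP1 against control, 46.2% and 19.8% in IR against control and 56.4% and 36.6% in sgBAP1 + IR against control. The members are brighter than most probe sets: their array medians were 9.44 to 9.70 log2, and those of all probe sets 6.12 to 6.15. The shares and changes of all genes here and above were not matched for level, and the part of this gap in them was not tested. Shifts of both signs ran through the pathway. The adjusted p was passed in none of the 6 comparisons by 8 of 39 members, a count without a computed share of all genes.

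**Figure D2:**
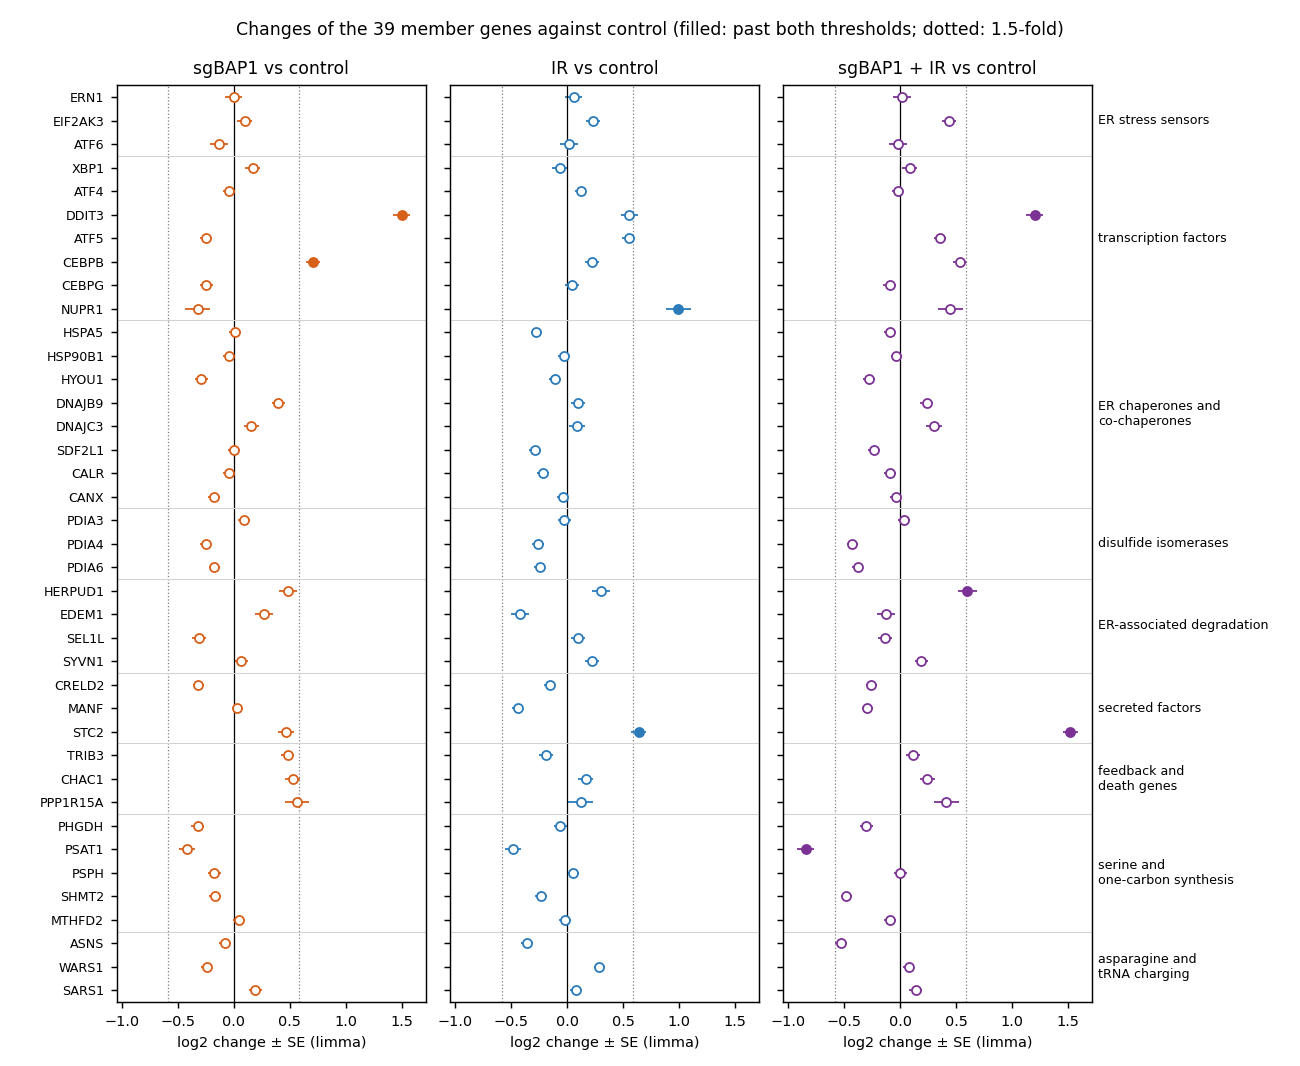
Log2 change (x axis) with limma SE of the 39 member genes, grouped by role, in sgBAP1, IR and sgBAP1 + IR cells against control (n = 2 arrays per group); filled points are called and dotted lines mark 1.5-fold. DDIT3, CEBPB, NUPR1, STC2, HERPUD1 and PSAT1 stand past the dotted lines and most chaperones lie close to 0.

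None of the 3 sensors was called in any comparison, where at most 3.62% of all genes rose and 4.39% fell. ERN1 measured 5.18 and 5.13 log2 in sgBAP1 + IR, 5.20 and 5.09 in sgBAP1, 5.10 and 5.29 in IR and 5.17 and 5.11 in control cells, with all groups overlapping. These levels lie within those of the T cell marker CD3E (5.04 to 5.35 log2), so detection of ERN1 is not shown and a change could be missed. ATF6 measured 7.55 and 7.42 log2 in sgBAP1 + IR, 7.33 and 7.42 in sgBAP1, 7.49 and 7.55 in IR and 7.58 and 7.43 in control cells, and its largest difference was -0.13 ± 0.08 (sgBAP1 against control, limma adjusted p = 0.277). Its 2 other probe sets read -0.25 and -0.02 in that comparison and -0.01 and 0.32 in IR against control, without a call. EIF2AK3 measured 8.72 and 8.67 log2 in sgBAP1 + IR, 8.35 and 8.37 in sgBAP1, 8.41 and 8.57 in IR and 8.27 and 8.25 in control cells. Both sgBAP1 + IR arrays of EIF2AK3 lay above the other 6. Its difference from control was 0.43 ± 0.06 in sgBAP1 + IR (limma adjusted p = 0.00211), a 1.35-fold difference and so not called. Another 2 EIF2AK3 probe sets read -0.05 and 0.34 in this comparison.

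The transcription factors held 4 of the 7 called genes. ATF4, the factor that gives the response its name, measured 11.78 and 11.81 log2 in sgBAP1 + IR, 11.79 and 11.76 in sgBAP1, 11.96 and 11.93 in IR and 11.82 and 11.83 in control cells. Its transcript was highest in IR cells, by 0.12 ± 0.05 over control (limma adjusted p = 0.143), and its difference was -0.04 ± 0.05 in sgBAP1 against control (adjusted p = 0.579). XBP1 measured 9.44 and 9.59 log2 in sgBAP1 + IR, 9.62 and 9.57 in sgBAP1, 9.40 and 9.32 in IR and 9.45 and 9.41 in control cells. The XBP1 difference between sgBAP1 and control was 0.17 ± 0.07 (adjusted p = 0.107), with no overlap of the arrays. All sgBAP1 arrays lay above all control arrays for 30.1% of all genes and below them for 32.5%. These shares were 28.3% and 30.6% for IR against control, and 37.5% and 31.4% for sgBAP1 + IR against control. Such separation was thus common, and lack of overlap is given here and elsewhere only as a description.

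DDIT3 (CHOP), which promotes cell death when stress persists, moved most among these factors. Its level was 7.96 and 7.82 log2 in sgBAP1 + IR, 8.24 and 8.14 in sgBAP1, 7.19 and 7.31 in IR and 6.64 and 6.74 in control cells. The groups did not overlap and stood in the order sgBAP1, sgBAP1 + IR, IR, control. DDIT3 rose by 1.5 ± 0.08 in sgBAP1 against control (2.82-fold, limma adjusted p = 7.3e-05) and by 1.20 ± 0.08 in sgBAP1 + IR against control (2.3-fold, adjusted p = 6.5e-05). In IR against control it lay 0.56 ± 0.08 higher (1.47-fold, adjusted p = 0.00347), under the fold threshold. Without control replicate 2 (0.60) or IR replicate 1 (0.62) this difference was past that threshold. It rose by 0.65 ± 0.08 in sgBAP1 + IR against IR (adjusted p = 0.00308), a call that was lost without sgBAP1 + IR replicate 1 (0.58). A second DDIT3 probe set was called in the same 3 comparisons, with 1.35, 1.11 and 0.68 log2.

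The IR differences of DDIT3 had opposite signs in the 2 genotypes. In sgBAP1 cells it lay at -0.30 ± 0.08 log2 after IR (limma adjusted p = 0.0355, not called), against 0.56 ± 0.08 in wild-type cells. The difference between both effects was -0.85 ± 0.11 (limma adjusted p = 0.0314), the only member interaction that was called. It was no longer called when any 1 of the 8 arrays was left out, with values from -0.92 to -0.78 and adjusted p from 0.0909 to 0.16, and the second probe set gave -0.68 ± 0.11 (adjusted p = 0.0578). CHAC1 (-0.45 ± 0.09, adjusted p = 0.0874) and CEBPB (-0.40 ± 0.09, adjusted p = 0.102) had interaction values of the same sign without a call.

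CEBPB encodes a C/EBP factor that partners ATF4 and also serves inflammatory genes. It measured 8.94 and 8.89 log2 in sgBAP1 + IR, 9.14 and 9.05 in sgBAP1, 8.58 and 8.63 in IR and 8.33 and 8.44 in control cells, again highest with the guide alone and lowest in control. CEBPB rose by 0.71 ± 0.06 in sgBAP1 against control (1.64-fold, limma adjusted p = 0.000393), and in sgBAP1 + IR it lay 0.53 ± 0.06 above control (1.45-fold, adjusted p = 0.000841, not called). CEBPG, a related factor that also pairs with ATF4, had 2 probe sets of opposite sign in sgBAP1 against control (-0.24 and 0.31), so its direction is not settled.

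NUPR1 and ATF5, ATF4 targets that act in transcription, were higher in irradiated cells of both genotypes. NUPR1, first described in the inflamed rat pancreas, measured 6.39 and 6.44 log2 in sgBAP1 + IR, 5.74 and 5.55 in sgBAP1, 7.08 and 6.84 in IR and 5.85 and 6.07 in control cells. Irradiated cells of either genotype lay above all 4 unirradiated arrays. NUPR1 rose by 0.99 ± 0.11 in IR against control (1.99-fold, limma adjusted p = 0.00156) and by 0.77 ± 0.11 in sgBAP1 + IR against sgBAP1 (1.7-fold, adjusted p = 0.00417). Among irradiated cells it lay at -0.55 ± 0.11 with the guide (adjusted p = 0.0188, not called), and without IR replicate 2 this difference was called (-0.67).

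ATF5, a factor of the mitochondrial stress response, measured 9.63 and 9.62 log2 in sgBAP1 + IR, 9.0 and 9.06 in sgBAP1, 9.86 and 9.79 in IR and 9.26 and 9.29 in control cells. The 4 irradiated arrays were again above the 4 others. ATF5 rose by 0.60 ± 0.05 in sgBAP1 + IR against sgBAP1 (1.51-fold, limma adjusted p = 0.000764), just past the fold threshold, and lost the call without sgBAP1 replicate 1 (0.57). In IR against control it lay 0.55 ± 0.05 higher (1.46-fold, adjusted p = 0.000926), just under it. Another 3 ATF5 probe sets read 0.48 to 0.52 and 0.52 to 0.56 in these comparisons, none of them called.

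**Figure D3:**
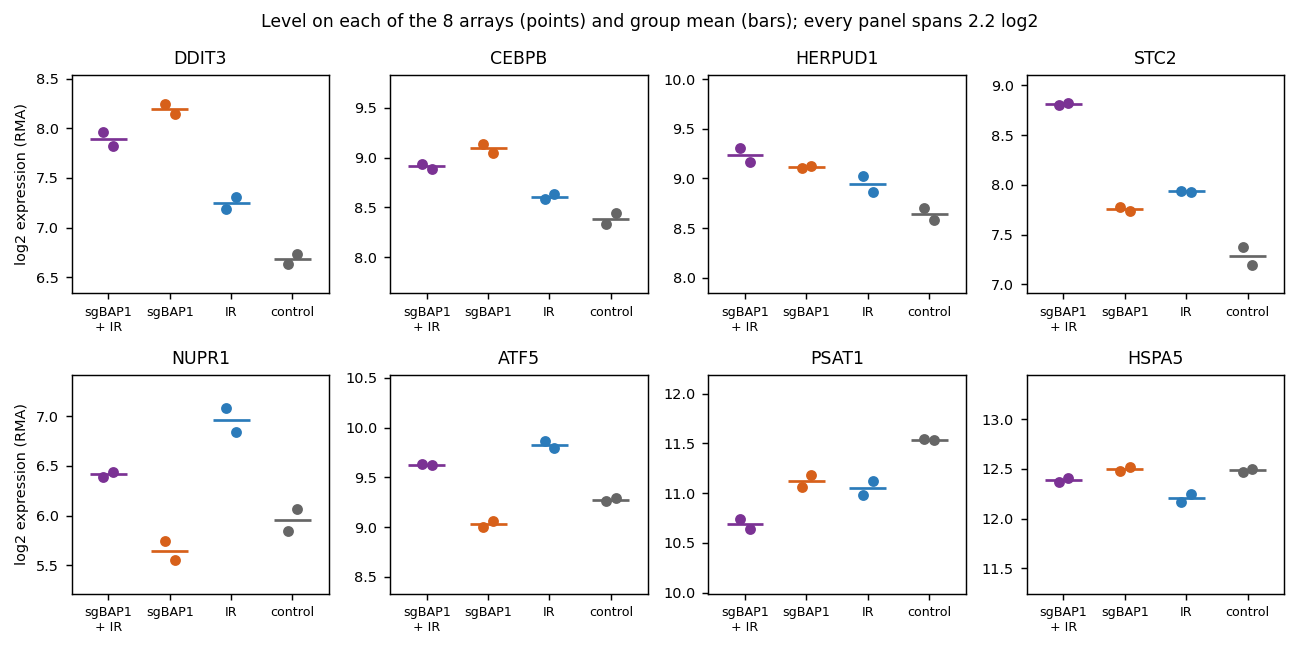
Log2 expression (RMA, y axis) of the 7 called members and of HSPA5 on each array (points) with group means (bars), n = 2 arrays per group; all panels span the same range. DDIT3 and CEBPB are highest in sgBAP1, STC2 in sgBAP1 + IR, NUPR1 and ATF5 in IR, and PSAT1 is highest in control.

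The 8 ER chaperones and co-chaperones had no called gene in any comparison, where at most 3.62% of all genes rose and 4.39% fell. At an unadjusted limma p under 0.05, 3, 3 and 4 of them passed in sgBAP1, IR and sgBAP1 + IR against control. These are 37.5%, 37.5% and 50% of 8, where 38.6%, 32.7% and 46.7% of all genes passed. HSPA5 (BiP), the chaperone that holds the sensors inactive and the usual readout of ER stress, measured 12.37 and 12.41 log2 in sgBAP1 + IR, 12.48 and 12.52 in sgBAP1, 12.17 and 12.25 in IR and 12.47 and 12.50 in control cells. The sgBAP1 and control arrays overlapped, with a difference of 0.01 ± 0.05 (limma adjusted p = 0.895), and the IR arrays were the lowest, at -0.27 ± 0.05 against control (adjusted p = 0.0141, 0.828-fold, not called). Of the other 5 HSPA5 probe sets, 1 was called lower in sgBAP1 against control (-0.66 ± 0.07, adjusted p = 0.000662), with 7.08 and 7.03 log2 in sgBAP1 and 7.73 and 7.69 in control. The other 4 lay between -0.01 and 0.09 in that comparison, so HSPA5 probe sets did not move together.

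The median of the 8 chaperones was -0.02 log2 in sgBAP1 against control, -0.07 in IR against control and -0.07 in sgBAP1 + IR against control, with 4, 2 and 2 of the 8 above 0. HSP90B1 (GRP94), the ER member of the HSP90 family, stayed within 0.0449 log2 over the 4 group means. HYOU1, an exchange factor for HSPA5, lay at -0.29 ± 0.05 in sgBAP1 against control (limma adjusted p = 0.00811), and SDF2L1, which works with HSPA5, at -0.29 ± 0.05 in IR against control (adjusted p = 0.0114). DNAJB9 (ERdj4), a co-chaperone that restrains IRE1, lay the other way, at 0.40 ± 0.06 in sgBAP1 against control (adjusted p = 0.00322). DNAJC3, a co-chaperone that also inhibits PERK, had 1 other probe set that was called higher in sgBAP1 (0.80) and sgBAP1 + IR (0.65) against control, where the representative read 0.16 and 0.30.

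Of the 3 disulfide isomerases, which pair cysteines in new proteins, PDIA4 and PDIA6 were lowest in sgBAP1 + IR cells. PDIA4 measured 11.62 and 11.59 log2 in sgBAP1 + IR, 11.81 and 11.74 in sgBAP1, 11.78 and 11.76 in IR and 12.05 and 12.01 in control cells, and PDIA4 in sgBAP1 + IR lay at -0.43 ± 0.05 against control (limma adjusted p = 0.000951, 0.744-fold). Both control arrays of PDIA4 were above the other 6 and both sgBAP1 + IR arrays below. PDIA6 was at -0.38 ± 0.05 in the same comparison (adjusted p = 0.00122). Neither passed the fold threshold. PDIA3 differed by at most 0.09 log2 in any comparison, and its second probe set read -0.27 in sgBAP1 and -0.24 in sgBAP1 + IR against control, opposite in sign to the representative and not called.

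ER-associated degradation, which returns misfolded proteins to the cytosol, had 1 called gene of 4. The call was in sgBAP1 + IR against control, where 3.62% of all genes rose. HERPUD1, a scaffold of the degradation complex whose promoter holds both kinds of element, measured 9.31 and 9.17 log2 in sgBAP1 + IR, 9.11 and 9.13 in sgBAP1, 9.03 and 8.86 in IR and 8.70 and 8.58 in control cells. Control was the lowest group, without overlap. HERPUD1 rose by 0.60 ± 0.08 in sgBAP1 + IR against control (1.52-fold, limma adjusted p = 0.00144), just past the fold threshold, and the call was lost without control replicate 2 (0.54) or sgBAP1 + IR replicate 1 (0.53). Another 2 probe sets were called there (0.64 each) and 1 was not, with levels of 2.98 to 3.32 log2. In sgBAP1 and in IR against control HERPUD1 lay 0.48 ± 0.08 (adjusted p = 0.00495) and 0.30 ± 0.08 (adjusted p = 0.0427) higher. EDEM1, a lectin that marks glycoproteins for degradation, lay 0.27 ± 0.08 higher in sgBAP1 (adjusted p = 0.0425) and at -0.42 ± 0.08 in IR (adjusted p = 0.0117) against control. Another EDEM1 probe set was called lower in sgBAP1 + IR against sgBAP1 (-0.59 ± 0.07, adjusted p = 0.00198), where the representative read -0.40 ± 0.08. The ligase SYVN1 (HRD1) was not called by either of its probe sets. SEL1L, the partner of SYVN1, lay at -0.31 ± 0.06 in sgBAP1 against control (adjusted p = 0.00868, not called), and 1 of its 3 other probe sets was called lower there (-0.68 ± 0.12, adjusted p = 0.00693).

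Of the 3 secreted factors, STC2 was called most often, in 4 comparisons. STC2 encodes stanniocalcin 2, a secreted glycoprotein induced through PERK and ATF4. It measured 8.80 and 8.82 log2 in sgBAP1 + IR, 7.78 and 7.74 in sgBAP1, 7.94 and 7.93 in IR and 7.38 and 7.20 in control cells. All 4 groups were apart, with sgBAP1 + IR the highest. STC2 rose by 1.52 ± 0.07 in sgBAP1 + IR against control (2.87-fold, limma adjusted p = 1.8e-05), by 1.05 ± 0.07 against sgBAP1 (adjusted p = 0.000206) and by 0.88 ± 0.07 against IR (adjusted p = 0.000807). It rose by 0.64 ± 0.07 in IR against control (adjusted p = 0.00123), a call lost without control replicate 2 (0.55), and lay 0.47 ± 0.07 higher in sgBAP1 against control (adjusted p = 0.00269, not called). The interaction was 0.41 ± 0.10 (adjusted p = 0.106), so a combined effect beyond the sum was not shown.

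Both other STC2 probe sets were called in IR against control (0.81 and 0.87), in sgBAP1 + IR against control (1.21 and 1.04) and in sgBAP1 + IR against sgBAP1 (1.18 and 0.72). Neither was called in sgBAP1 + IR against IR (0.41 and 0.17), so the guide effect on STC2 among irradiated cells rests on 1 of 3 probe sets. MANF, a secreted protein that protects stressed cells, had closely matched arrays and lay the other way after IR. It measured 10.67 and 10.66 log2 in sgBAP1 + IR, 10.99 and 11.00 in sgBAP1, 10.52 and 10.52 in IR and 10.98 and 10.95 in control cells. MANF lay at -0.44 ± 0.05 in IR against control (limma adjusted p = 0.0014) and at -0.32 ± 0.05 in sgBAP1 + IR against sgBAP1 (adjusted p = 0.0046), both under the fold threshold. CRELD2 lay at -0.32 ± 0.05 in sgBAP1 against control (adjusted p = 0.00356).

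The 3 feedback and death genes lay 0.48 to 0.57 log2 higher in sgBAP1 against control, just under the fold threshold. All 3 passed the adjusted p, where 11.9% of all genes were higher by it. None of the 3 was called, where 2.32% of all genes rose. PPP1R15A (GADD34), which brings the phosphatase that restores eIF2, measured 8.27 and 7.98 log2 in sgBAP1 + IR, 8.26 and 8.29 in sgBAP1, 7.91 and 7.75 in IR and 7.63 and 7.80 in control cells. The sgBAP1 arrays of PPP1R15A were above control (0.57 ± 0.11, 1.48-fold, limma adjusted p = 0.00812), and its 2 sgBAP1 + IR arrays differed by 0.281, the widest replicate gap of any member. CHAC1, which degrades glutathione and is a sensitive ATF4 target, measured 7.70 and 7.80 log2 in sgBAP1 + IR, 8.11 and 7.96 in sgBAP1, 7.69 and 7.67 in IR and 7.50 and 7.52 in control cells. CHAC1 lay 0.52 ± 0.07 higher in sgBAP1 against control (1.44-fold, adjusted p = 0.00154). TRIB3, a pseudokinase that restrains ATF4 and DDIT3, lay 0.48 ± 0.06 higher there (1.4-fold, adjusted p = 0.00139). In sgBAP1 + IR against sgBAP1 all 3 were below 0, TRIB3 at -0.37 ± 0.06 (adjusted p = 0.00619), CHAC1 at -0.28 ± 0.07 (adjusted p = 0.0257) and PPP1R15A at -0.15 ± 0.11 (adjusted p = 0.374).

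Of the 5 serine and one-carbon enzymes and ASNS, which ATF4 switches on in amino acid shortage, PSAT1, ASNS, SHMT2 and PHGDH lay below 0 in sgBAP1, IR and sgBAP1 + IR against control, where DDIT3 lay above, and PSPH and MTHFD2 were between -0.17 and 0.06. Against control, ASNS in sgBAP1 (-0.08) and PHGDH in IR (-0.06) were close to 0, so their sign alone shows no shift there. PSAT1, the aminotransferase of serine synthesis, measured 10.74 and 10.64 log2 in sgBAP1 + IR, 11.06 and 11.18 in sgBAP1, 10.98 and 11.12 in IR and 11.54 and 11.53 in control cells. The sgBAP1 + IR arrays were the lowest, the control arrays the highest, and sgBAP1 and IR overlapped between them. PSAT1 fell by 0.85 ± 0.07 in sgBAP1 + IR against control (0.556-fold, limma adjusted p = 0.000211), and all of its 7 other probe sets were called lower there, from -1.10 to -0.61. Against control it lay at -0.42 ± 0.07 in sgBAP1 (adjusted p = 0.0057) and at -0.49 ± 0.07 in IR (adjusted p = 0.00487), with 0 and 3 of the 7 others called lower.

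ASNS, asparagine synthetase, measured 10.32 and 10.35 log2 in sgBAP1 + IR, 10.79 and 10.78 in sgBAP1, 10.48 and 10.53 in IR and 10.89 and 10.83 in control cells. Both irradiated groups of ASNS lay below both others. Its difference from control was -0.53 ± 0.05 in sgBAP1 + IR (0.693-fold, limma adjusted p = 0.000375, not called), although 2 of its 3 other probe sets were called there (-0.70 and -0.68). SHMT2, the mitochondrial enzyme that moves a carbon from serine to folate, lay at -0.48 ± 0.05 in that comparison (adjusted p = 0.000551), and PHGDH, the first enzyme of serine synthesis, at -0.30 ± 0.06 (adjusted p = 0.00684). PSPH and MTHFD2 were at 0.00 and -0.09. All 5 serine and one-carbon genes lay below 0 in sgBAP1 + IR against IR, with a median of -0.24 and 0 called, where 1.13% of all genes fell. WARS1, a tRNA synthetase that interferon also induces, differed from ASNS: it lay 0.29 ± 0.05 higher in IR against control (adjusted p = 0.01) and 0.32 ± 0.05 higher in sgBAP1 + IR against sgBAP1 (adjusted p = 0.0063). SARS1 was not called in any comparison.

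**Figure D4:**
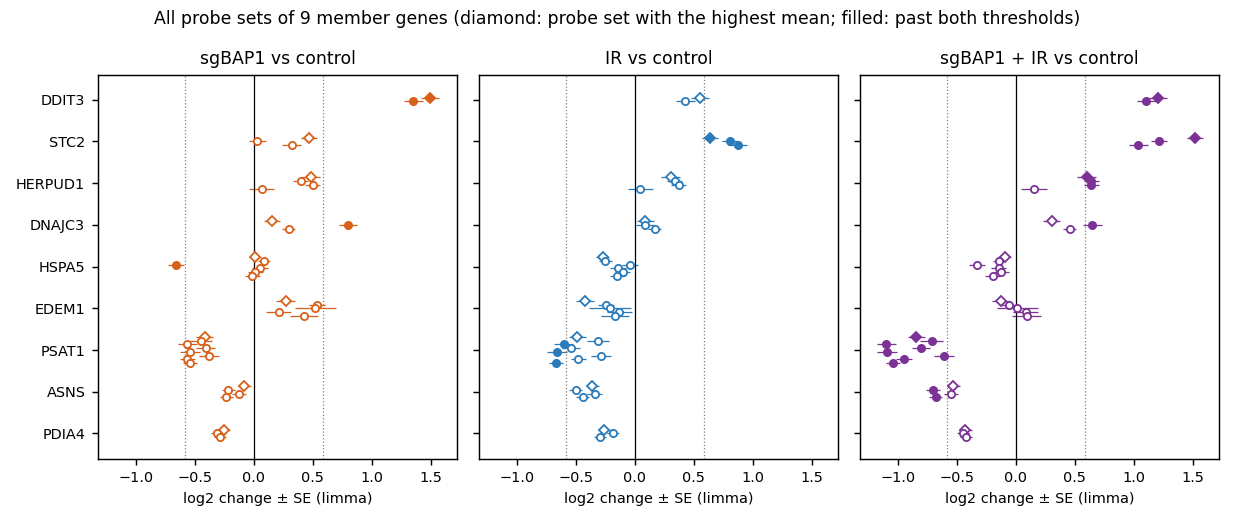
Log2 change with limma SE of every probe set of 9 members in sgBAP1, IR and sgBAP1 + IR against control (n = 2 arrays per group); diamonds are the representatives and filled symbols are called. The 8 PSAT1 probe sets all lie below 0, whereas 1 HSPA5 and 1 DNAJC3 probe set stand apart from the others of their gene.

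Grouped by promoter instead of role, the 10 members with ERSE or ERSE-II had a median of -0.04 log2 in sgBAP1 against control (4 above and 6 below 0, 0 called) and of -0.13 in IR against control (1 above, 9 below, 0 called). In sgBAP1 + IR against control the median was -0.09, with 2 above and 8 below 0, and HERPUD1 was the 1 called gene. In these 3 comparisons 2.32%, 2.2% and 3.62% of all genes rose and 2.61%, 1.38% and 4.39% fell. The 4 members with CARE ranged from -0.24 to 0.52 in sgBAP1 against control and from -0.53 to 0.60 in sgBAP1 + IR against control. ASNS and CHAC1, which share the element printed above, lay at -0.53 and 0.24 in sgBAP1 + IR against control.

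IR effects could be set side by side in both genotypes because the pairs share no arrays. Of the 39 members, 28 had the same sign in sgBAP1 + IR against sgBAP1 and in IR against control, 14 above and 14 below 0. Across genes the effects had a Pearson r of 0.756, given as a description, since genes are not independent and all arrays were normalized together. STC2, NUPR1, ATF5, EIF2AK3 and WARS1 were above 0 in both and PSAT1, ASNS, MANF, EDEM1 and SHMT2 below 0 in both. DDIT3, CHAC1 and CEBPB were above 0 in wild-type and below 0 in sgBAP1 cells, of which the DDIT3 difference was called.

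**Figure D5:**
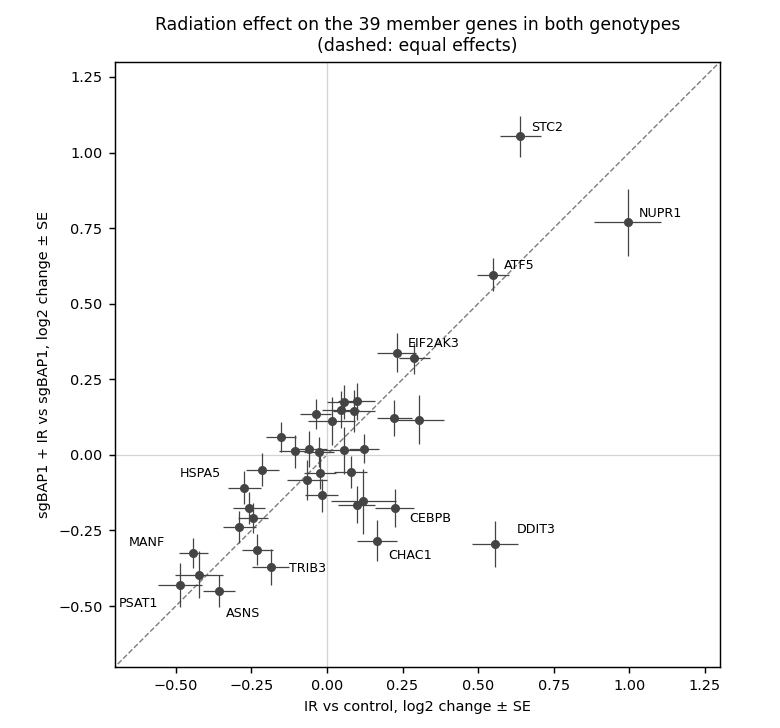
Log2 change with limma SE of the 39 members after IR, in wild-type cells (x axis, IR against control) and in sgBAP1 cells (y axis, sgBAP1 + IR against sgBAP1); the dashed line marks equal effects and n = 2 arrays per group. DDIT3 lies at 0.56 and -0.30, farthest from the line, and 28 of 39 genes have the same sign on both axes.

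Other genes of the pathway were read from 5 lists. Of 21 measured further amino acid response and ATF4 target genes, 5 rose (23.8%) and 1 fell (4.76%) in sgBAP1 against control, where 2.32% of all genes rose and 2.61% fell. Those that rose included SLC7A11, the cystine importer (0.73 ± 0.05, limma adjusted p = 0.000154), and TNFRSF10B, the death receptor that DDIT3 can induce (0.61 ± 0.06, adjusted p = 0.000399), beside ATF3, GDF15 and SESN2; several of these also answer to p53 or NRF2. DDIT4, an inhibitor of mTORC1, fell by 1.64 ± 0.05 (adjusted p = 1.7e-05). TNFRSF10B rose by 0.85 ± 0.06 in sgBAP1 + IR against control (adjusted p = 6.9e-05), where DDIT4 fell by 1.08 ± 0.05 (1 gene of 21 each way, and 3.62% and 4.39% of all genes). In IR against control and in sgBAP1 + IR against sgBAP1 0 of the 21 were called, although 11 and 9 passed an unadjusted limma p under 0.05 (52.4% and 42.9%, against 32.7% and 34.9% of all genes). In sgBAP1 + IR against IR DDIT4 alone was called, lower (4.76%, and 1.13% of all genes). Its interaction was called too, in the higher direction (4.76%, and 0.154% of all genes). In the interaction 8 of the 21 passed an unadjusted limma p under 0.05 (38.1%, and 15.4% of all genes). DDIT4 averaged 9.54 log2 in sgBAP1 + IR, 8.98 in sgBAP1, 10.58 in IR and 10.62 in control cells.

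Of 30 measured further ER folding and quality control genes, 1 rose (3.33%, and 2.32% of all genes) and 0 fell in sgBAP1 against control: ERO1A, the oxidase that recharges disulfide isomerases and that hypoxia also induces (0.60 ± 0.06, limma adjusted p = 0.000674). ERO1A fell by 0.71 ± 0.06 in sgBAP1 + IR against sgBAP1 (adjusted p = 0.000639). Its relative ERO1B measured 5.69 and 5.72 log2 in sgBAP1 + IR, 6.70 and 6.38 in sgBAP1, 5.89 and 5.58 in IR and 6.83 and 6.84 in control cells, and all irradiated arrays were below the others. ERO1B fell by 1.10 ± 0.13 in IR against control (adjusted p = 0.00174), by 1.13 ± 0.13 in sgBAP1 + IR against control (adjusted p = 0.000624) and by 0.83 ± 0.13 in sgBAP1 + IR against sgBAP1 (adjusted p = 0.00493). In sgBAP1 + IR against control the membrane-bound factor CREB3 (0.61 ± 0.06) and UFM1, a ubiquitin-like modifier of ER proteins (0.67 ± 0.06), rose as well, 2 of 30 genes (6.67%, and 3.62% of all genes). Of 17 measured further cytosolic tRNA synthetases and 13 genes of the eIF2 kinases, eIF2 and its exchange factor, 0 were called in any comparison, and of 17 heat shock genes of the cytosol and mitochondria only LONP1, a mitochondrial protease, was called: it fell by 0.72 ± 0.06 in sgBAP1 against control (5.88% of the list, and 2.61% of all genes). At an unadjusted limma p under 0.05, 11 of the 17 synthetases (64.7%) and 7 of the 13 eIF2 genes (53.8%) passed in sgBAP1 + IR against control, where 46.7% of all genes did. The median of the tRNA synthetases was -0.18 in sgBAP1 + IR against control, with 12 of 17 below 0. The heat shock genes had a median of -0.13 there, also with 12 of 17 below 0. Of them 12 (70.6%) passed the unadjusted limma p under 0.05.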

How the data were processed

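Gene expression was measured on 8 Affymetrix PrimeView arrays of PANC1 cells, in 4 groups of 2 taken from the sample labels. The deposited values were log2 expression levels, which the authors obtained with RMA (background subtraction, quantile normalization and summarization of the probes of a set). RMA gives every array the same distribution of probe intensities, so a shift of most transcripts at once would not be seen. There are no read counts, and the number of arrays limits the precision. The table held 49395 probe sets; 102 control probe sets were left out and 49293 were tested without a filter on signal. No column was unmapped. BAP1 transcripts were not analysed here, and the targeted gene therefore gives no check of the labels.

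Linear models were fitted to all probe sets with lmFit and eBayes of limma 3.58.1 in R 4.3.3. They held a mean for each of the 4 groups and used all 8 arrays, with 4 residual degrees of freedom, 3.22 prior degrees of freedom and a median SD of 0.0787 log2 between arrays of a group. The ± values are standard errors from limma on the log2 scale (n = 2 arrays per group). Adjusted p-values are Benjamini-Hochberg over all 49293 probe sets of a comparison. The fold threshold of 1.5 is that of the methods. The fit was tested on simulated data with planted changes. Probe sets ending in s or x (10 and 4 of the 39 representatives, ATF4 and both DDIT3 probe sets included) may cross-hybridize with other transcripts.

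Values on all arrays and full statistics were given by rule to members called in any comparison, to the 3 largest changes of each comparison and to HSPA5, ERN1, EIF2AK3, ATF6, XBP1, ATF4 and DDIT3; MANF, PDIA4, ASNS and ERO1B were added after their values were seen. The members, the 5 further gene lists and the motifs were chosen with earlier results of these data known. Promoter sequences came from RefSeq (GRCh38.p14), and a genome build for the array is not given in the sources used here, so no probe coordinates are reported. Alternatives were a further quantile normalization, median centring, a filter on dim probe sets (mean under 5 log2), no fold threshold, an unadjusted limma p under 0.01, an intensity trend in eBayes, the mean of a gene's probe sets, fits on only the arrays compared, the methods' t-test and leaving out each array.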

Additional observations from a re-analysis of the deposited data

Results flagged for a closer look

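The IR effect on DDIT3 differed between genotypes by a test of the difference itself. Irradiated sgBAP1 cells lay at -0.30 log2 against sgBAP1 cells, and irradiated wild-type cells at 0.56 against control, a difference of -0.85 ± 0.11 (limma adjusted p = 0.0314, n = 2 arrays per group). The second DDIT3 probe set gave -0.68 (adjusted p = 0.0578), and the call was lost whichever of the 8 arrays was left out (adjusted p from 0.0909 to 0.16). On the sgBAP1 + IR and sgBAP1 arrays DDIT3 lay between 7.82 and 8.24 log2, and on the IR and control arrays between 6.64 and 7.31. The ACTB 3′ to 5′ difference also separates these arrays, and its part in the result was not tested. No group was large enough to look for single arrays that stand apart.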

How the results depend on the processing

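Precision is limited by 2 arrays a group and by probe signal, and RMA fixes the overall distribution. No paired analysis was possible because replicate numbers in the labels do not tie arrays of different groups together. The all-gene median moved by less than 0.1 log2 under each scaling. Called members higher and lower numbered 2 and 0 in sgBAP1 against control, 2 and 0 in IR against control, 3 and 1 in sgBAP1 + IR against control, 3 and 0 in sgBAP1 + IR against sgBAP1, 2 and 0 in sgBAP1 + IR against IR, and 0 and 1 in the interaction. Without a fold threshold they became 10 and 11, 8 and 10, 12 and 10, 5 and 10, and 5 and 7 in the first 5 comparisons, in that order. With the methods' t-test 1 was higher in sgBAP1 against control (DDIT3), 0 in IR against control, 2 in sgBAP1 + IR against control (DDIT3 and STC2, without HERPUD1), 2 in sgBAP1 + IR against sgBAP1 (ATF5 and STC2, without NUPR1) and 1 in sgBAP1 + IR against IR (STC2), with PSAT1 lower as before, and 0 members passed it after Benjamini-Hochberg adjustment in any comparison. With the mean of a gene's probe sets 2 were lower in sgBAP1 + IR against control (ASNS and PSAT1) and 1 higher in sgBAP1 + IR against IR (DDIT3, with STC2 at 0.48). Leaving out 1 array gave 2 to 3 higher in each of the first 4 comparisons, with 1 lower in sgBAP1 + IR against control (PSAT1 each time), and 1 to 2 higher and 0 to 1 lower in sgBAP1 + IR against IR. In the interaction it gave 0 to 0 lower, since DDIT3 lost its call whichever array was left out. In sgBAP1 + IR against IR, DDIT3 lost its call without sgBAP1 + IR replicate 1, leaving 1 higher, and NUPR1 gained one without IR replicate 2 (1 lower, -0.67). HERPUD1 in sgBAP1 + IR against control also lost its call with median centring (0.58) or the mean of its probe sets (0.51), and ATF5 in sgBAP1 + IR against sgBAP1 with the same choices (0.57 and 0.52). CEBPG in sgBAP1 against control was -0.24 and became 0.0319 with the mean of its probe sets, which have opposite signs. Some differences moved past the fold threshold when 1 array was left out. In sgBAP1 against control these were CHAC1 without sgBAP1 replicate 2 (0.60) and PPP1R15A without control replicate 2 (0.65). In IR against control they were ATF5 without IR replicate 2 (0.59) and DDIT3, as given above. CEBPB did so in sgBAP1 + IR against control without control replicate 2 (0.59). Beyond what each alternative's construction shows, the causes were not tested. Single-gene values under alternatives were followed only for members past the adjusted p in the main fit. Of these values, 1401 kept their direction and side of the threshold, 85 gained a call, 24 lost one and 1 changed sign. Most of the gains came from dropping the fold threshold, which calls every such member by construction.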
